A study of Mus musculus with 2 samples.

Results

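The lysosome genes described here were 47 genes chosen by symbol, out of 23309 rows of the deposited table, and each symbol matched 1 row exactly. They code for 9 proteases, 15 enzymes that break down glycans and lipids, 10 membrane proteins and cofactors, the 2 transcription factors Tfeb and Tfe3, and 11 parts of the proton pump. RNA was sequenced from mouse marrow progenitors in culture, in which Cebpa alleles carry loxP sites and Cre is activated by tamoxifen (genotype Cebpaf/f;CreER), given 5 nM 4-hydroxytamoxifen (4OHT) for 72 h or ethanol, its vehicle, for the same time. Cebpa encodes C/EBPα, a transcription factor of granulocyte and monocyte development. Cells of either condition came from lineage-depleted marrow, carried retroviral HA-Hoxa9 and Flag-Meis1, a pair of leukaemia-causing homeobox genes, and grew with IL3. The promoter that drives CreER and the number of mice are not given in the sources used here. Each condition has 1 deposited sample, which joins 2 replicates, so no spread between replicates can be given. Loss of Cebpa and any other effect of 4OHT or Cre cannot be told apart in this design.

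Lysosomes are acidic compartments in which hydrolases degrade proteins, glycans and lipids delivered by endocytosis, phagocytosis and autophagy. The vacuolar ATPase acidifies them: its V1 sector, on the cytosolic side, hydrolyses ATP, and its V0 sector, in the membrane, carries the protons. Most soluble enzymes reach lysosomes on mannose 6-phosphate tags. In myeloid cells the same machinery serves killing and digestion by phagocytes, and it builds granules related to lysosomes. TFEB and TFE3, of the MiT family of transcription factors, switch on many lysosomal genes through an E-box called the CLEAR element.

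Levels are FPKM, fragments normalised to the transcript's length and to the mapped total, so they can be compared between genes. A gene was called higher or lower, and is said to have risen or fallen, when the authors' deposited table gave it status OK and a q-value under 0.05. Of 11953 rows with status OK, 2.80% were called higher and 3.11% lower. Cebpa itself had 42.8 FPKM after 4OHT and 109 FPKM in vehicle cells, so 39.2% remained, and the authors' deposited table gave it q = 0.00165. Of 7 progenitor markers, Cd34 had 493 FPKM after 4OHT and 284 FPKM in vehicle cells. Myb had 149 FPKM after 4OHT and 152 FPKM in vehicle cells, and Ptprc 41.2 FPKM after 4OHT and 42.7 FPKM in vehicle cells. The lowest, Procr, had 2.25 FPKM after 4OHT and 0.741 FPKM in vehicle cells. Some markers of other lineages were also high. Cpa3, of mast cells, had 975 FPKM after 4OHT and 562 FPKM in vehicle cells. Ly6c2, of monocytes, had 323 FPKM after 4OHT and 551 FPKM in vehicle cells. None of 8 lymphoid markers reached 1 FPKM. These levels alone do not settle the progenitor label. No read counts were at hand. Among 2053 rows above 0 and under 0.1 FPKM in both conditions, the commonest ratio of 4OHT to vehicle was 0.853 (59 rows), with 26 rows at 1.71 and 16 at 0.426, as steps of whole fragments would give. On that reading 1 fragment was worth 0.853 times as much FPKM in the 4OHT sample, as a depth 1.17 times that of the vehicle sample would give. Each value joins 2 replicates and is normalised, so the depths themselves, relative and absolute, are unknown.

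The promoters of the 4 genes that fell after 4OHT, and that of the most abundant member, Ctsd, are shown for the motifs they hold. They are RefSeq promoters on GRCm38.p6, from 250 bases before to 50 bases after the annotated start, written 5′ to 3′ on the gene's strand. Capitals mark every match on either strand to the E-box TCACGTG or to TTGCNNAA, a motif that C/EBP factors can bind. Gla (chrX:134600956-134601255, minus strand) holds a pair of E-boxes, Atp6v0d1 (chr8:105566015-105566314, minus strand) holds 1 across its start, and Ctsd (chr7:142387778-142388077, minus strand) holds a pair. Neu1 (chr17:34931003-34931302, plus strand) matches neither motif, and Cd68 (chr11:69666121-69666420, minus strand) has a C/EBP-type match.
Gla: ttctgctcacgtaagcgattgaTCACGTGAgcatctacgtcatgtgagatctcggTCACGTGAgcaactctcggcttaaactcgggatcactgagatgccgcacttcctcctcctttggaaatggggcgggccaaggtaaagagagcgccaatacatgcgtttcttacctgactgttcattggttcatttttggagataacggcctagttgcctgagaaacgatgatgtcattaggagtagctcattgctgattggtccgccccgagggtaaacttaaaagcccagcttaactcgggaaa
Atp6v0d1: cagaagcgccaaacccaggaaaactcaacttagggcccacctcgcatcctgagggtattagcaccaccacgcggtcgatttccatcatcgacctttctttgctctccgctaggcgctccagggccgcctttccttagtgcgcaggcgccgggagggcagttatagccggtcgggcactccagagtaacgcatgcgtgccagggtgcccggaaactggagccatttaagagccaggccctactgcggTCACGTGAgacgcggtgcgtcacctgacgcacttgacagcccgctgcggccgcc
Neu1: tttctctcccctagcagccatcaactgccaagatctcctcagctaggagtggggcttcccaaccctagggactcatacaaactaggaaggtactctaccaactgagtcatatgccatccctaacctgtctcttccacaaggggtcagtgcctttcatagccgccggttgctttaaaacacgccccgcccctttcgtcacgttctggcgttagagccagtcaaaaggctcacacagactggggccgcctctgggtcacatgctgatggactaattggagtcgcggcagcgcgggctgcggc
Cd68: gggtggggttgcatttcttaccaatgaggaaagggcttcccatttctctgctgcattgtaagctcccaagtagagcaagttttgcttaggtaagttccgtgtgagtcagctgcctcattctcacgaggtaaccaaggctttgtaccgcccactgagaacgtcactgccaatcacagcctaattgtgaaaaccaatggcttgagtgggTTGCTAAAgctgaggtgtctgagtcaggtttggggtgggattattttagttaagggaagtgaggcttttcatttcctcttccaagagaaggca
Ctsd: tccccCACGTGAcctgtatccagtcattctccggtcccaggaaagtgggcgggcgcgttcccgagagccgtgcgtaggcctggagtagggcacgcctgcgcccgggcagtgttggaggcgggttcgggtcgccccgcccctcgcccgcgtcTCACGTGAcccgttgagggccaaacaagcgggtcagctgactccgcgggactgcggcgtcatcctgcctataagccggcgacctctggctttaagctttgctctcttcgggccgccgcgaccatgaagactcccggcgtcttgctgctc

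Most lysosome genes had close to the same level in 4OHT and vehicle cells, and 4 of 47 fell: Gla, Neu1, Cd68 and Atp6v0d1. None rose, where the background was 2.80% of tested rows. The 4 falls are 8.51% of the members, beside 3.11% of all tested rows and 2.50% of tested rows of at least 10 FPKM in the higher condition. Whether that share differs from the background was not tested, since the members were chosen with earlier results of these data known. The authors' deposited table also marks called rows that differ by at least 1.5-fold, and by that stricter rule Gla and Cd68 passed (4.26% of members, against 2.79% of tested rows called lower) and Neu1 and Atp6v0d1 did not; none was higher (2.47% of tested rows). At q under 0.01, 1 member was lower (Gla) and none higher, beside 2.12% and 1.72% of tested rows. At q under 0.1, 4 were lower and 1 was higher (Atp6v0a1), beside 3.64% and 3.44%. By size alone, at least 1.5-fold on log2(FPKM + 1), 1 was lower (Cd68) and none higher, beside 2.74% and 2.12%. At an unadjusted p under 0.05 in the same table there were 7 members, 6 lower and 1 higher, beside 6.14% of tested rows lower and 6.20% higher, and the table has the form of Cuffdiff output. For 33 of 47 members (70.2%) the authors' deposited table gave a q above 0.9, beside 76.7% of all tested rows.

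The lysosome genes were well expressed. Of 47 members, 41 had at least 10 FPKM in both conditions and 11 had at least 100 FPKM in both. The median level was 45.5 FPKM after 4OHT and 46.3 FPKM in vehicle cells, and all members summed to 3585 FPKM after 4OHT and 3840.5 FPKM in vehicle cells, a ratio of 0.933. Only Lgmn, the asparagine-specific protease legumain, stayed under 1 FPKM, with 0.434 FPKM after 4OHT and 0.382 FPKM in vehicle cells. The other 46 had a median log2((4OHT FPKM + 1)/(vehicle FPKM + 1)) of -0.06, with 32 below 0 and 14 above, and 35 of them (76.1%) lay within 1.2-fold. Over all 10989 rows that reached 1 FPKM in either condition the median was 0.00, 49.9% were below 0 and 81.6% lay within 1.2-fold. Over the 7036 rows of at least 10 FPKM in the higher condition, nearer the members in level, the median was -0.01. Of those rows 52.7% were below 0 and 84.2% lay within 1.2-fold. These differences in spread were not tested. The pseudocount of 1 FPKM makes this log2 ratio understate the change of low genes.

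**Figure D1:**
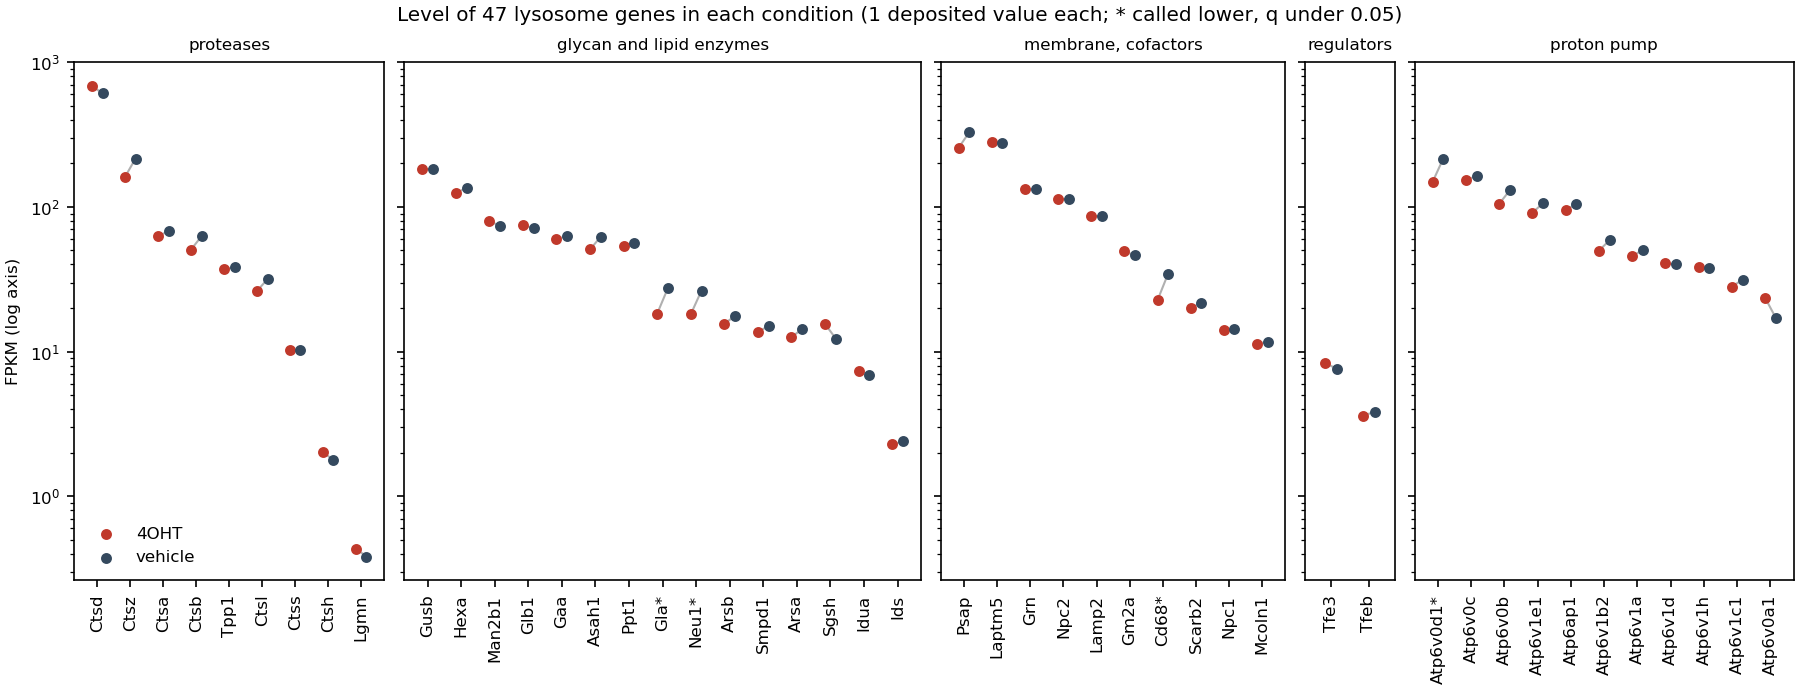
FPKM on a log axis (1 deposited value per condition) for each of the 47 lysosome genes, by role and in order of vehicle level, with 4OHT in red and vehicle in dark blue. Points of a gene mostly sit side by side, and the 4 starred genes, Gla, Neu1, Cd68 and Atp6v0d1, are the ones called lower after 4OHT.

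Among the proteases none of 9 was called, and the group's summed level was 1038 FPKM in either condition. That equality rests on cathepsin D, the main aspartic protease of lysosomes. Ctsd, the most abundant member, had 688 FPKM after 4OHT and 609 FPKM in vehicle cells, and did not pass the authors' test. It made up 68.7% of the summed cathepsin FPKM after 4OHT and 61.0% in vehicle cells. Without Ctsd the other 8 proteases summed to 351 FPKM after 4OHT and 429 FPKM in vehicle cells, a ratio of 0.817. Ctsz, a carboxypeptidase of the cysteine cathepsin family, was next in level, at 161 FPKM after 4OHT and 216 FPKM in vehicle cells, a log2 ratio of -0.42 and a q of 0.211 in the authors' deposited table. The endopeptidases Ctsb (50.6 FPKM after 4OHT and 62.7 FPKM in vehicle cells) and Ctsl (26.2 FPKM after 4OHT and 31.7 FPKM in vehicle cells) were likewise lower after 4OHT without passing the test (the authors' deposited table has q = 0.543 for Ctsb and q = 0.629 for Ctsl). The remaining proteases lay within 1.2-fold. Ctsa, the serine carboxypeptidase known as protective protein, had 62.9 FPKM after 4OHT and 67.8 FPKM in vehicle cells. Tpp1, which removes tripeptides from protein ends, had 37.0 FPKM after 4OHT and 38.3 FPKM in vehicle cells. Ctss, a cathepsin of antigen-presenting cells, had 10.3 FPKM in each condition, and Ctsh, an aminopeptidase, 2.01 FPKM after 4OHT and 1.78 FPKM in vehicle cells.

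Of 15 glycan and lipid enzymes, Gla and Neu1 fell and none rose. Gla, α-galactosidase A, which trims globotriaosylceramide, had 18.3 FPKM after 4OHT and 27.5 FPKM in vehicle cells, 1.51-fold lower after 4OHT, with a log2 ratio of -0.57 and q = 0.00806 in the authors' deposited table (mm9 chromosome X, 131122708 to 131135544). Neu1, the lysosomal sialidase, had 18.1 FPKM after 4OHT and 26.4 FPKM in vehicle cells, 1.46-fold lower, with a log2 ratio of -0.52 and q = 0.0175 in that table (mm9 chromosome 17, 35068198 to 35074242). NEU1 works in a complex with cathepsin A and β-galactosidase. Their genes did not follow it past the threshold: Ctsa is given above, and Glb1, β-galactosidase, had 75.1 FPKM after 4OHT and 71.2 FPKM in vehicle cells.

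The other 13 enzymes of glycans and lipids did not pass the test. The most abundant were Gusb, β-glucuronidase, at 183 FPKM in each condition, and Hexa, the α chain of β-hexosaminidase, at 124 FPKM after 4OHT and 136 FPKM in vehicle cells. Of the other glycosidases, Man2b1, the lysosomal α-mannosidase, had 80.3 FPKM after 4OHT and 73.5 FPKM in vehicle cells, and Gaa, acid α-glucosidase, 60.0 FPKM after 4OHT and 62.8 FPKM in vehicle cells. Enzymes of ceramide, sphingomyelin and palmitoylated proteins had lower values after 4OHT, none past the threshold. Asah1, acid ceramidase, had 50.8 FPKM after 4OHT and 62.4 FPKM in vehicle cells (q = 0.493 in the authors' deposited table), Ppt1, a thioesterase that removes palmitate from proteins, 54.0 FPKM after 4OHT and 56.5 FPKM in vehicle cells, and Smpd1, acid sphingomyelinase, 13.7 FPKM after 4OHT and 15 FPKM in vehicle cells. The sulfatases and Idua had at most 17.6 FPKM, and their ratios differed in direction. Sgsh, the heparan N-sulfatase, had the highest ratio of the enzymes, with 15.5 FPKM after 4OHT and 12.3 FPKM in vehicle cells, a log2 ratio of 0.31 and q = 0.432 in the authors' deposited table. The sulfatases Arsa (12.6 FPKM after 4OHT and 14.3 FPKM in vehicle cells), Arsb (15.6 FPKM after 4OHT and 17.6 FPKM in vehicle cells) and Ids (2.28 FPKM after 4OHT and 2.39 FPKM in vehicle cells) were slightly lower after 4OHT, and Idua, α-L-iduronidase, had 7.30 FPKM after 4OHT and 6.88 FPKM in vehicle cells. The median log2 ratio of the 15 enzymes was -0.06, the same as over all members.

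**Figure D2:**
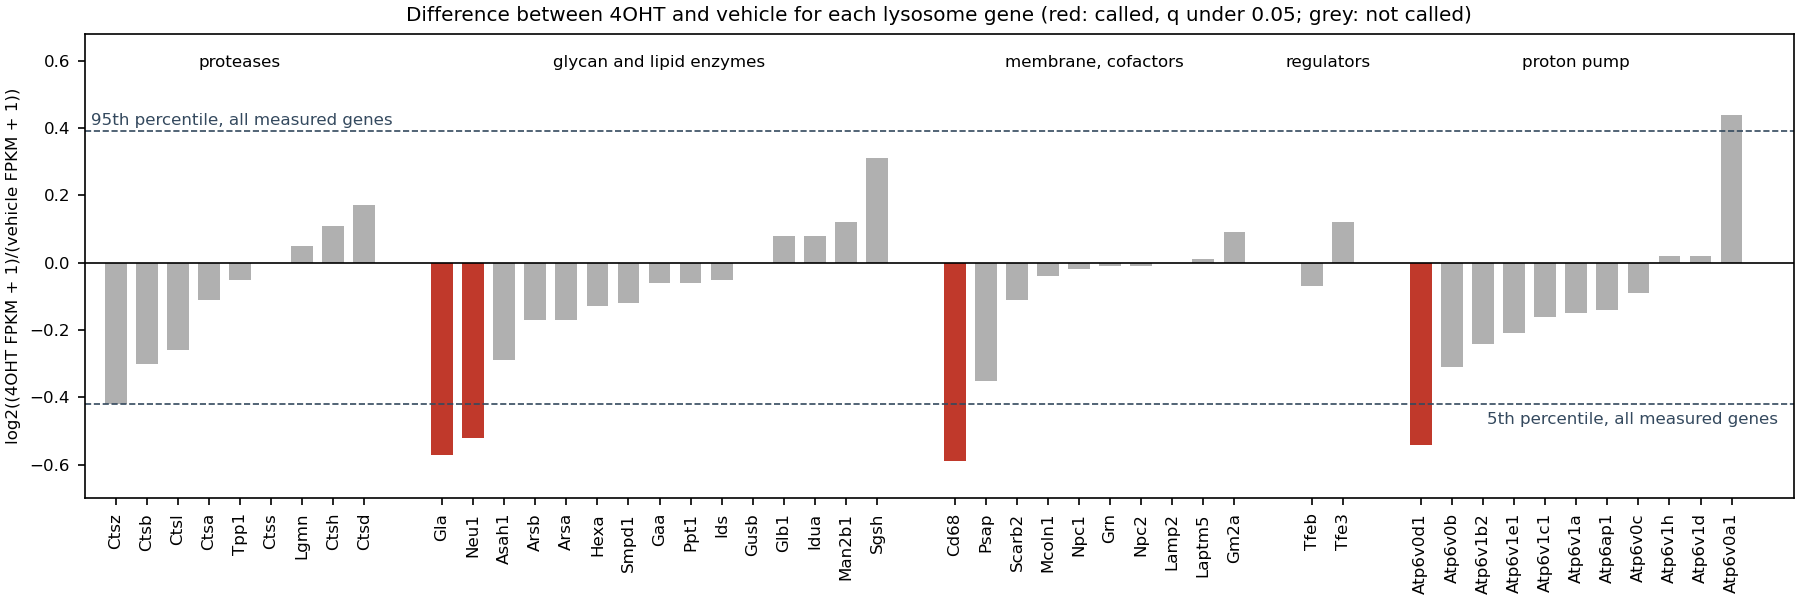
Log2((4OHT FPKM + 1)/(vehicle FPKM + 1)) for each of the 47 lysosome genes, by role, with called genes in red and the rest in grey. Dashed lines are the 5th and 95th percentiles over all 10989 rows of at least 1 FPKM (-0.42 and 0.39), and the 4 red bars lie below the lower line.

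Among membrane proteins and cofactors Cd68 fell and the other 9 did not pass the test. Cd68, a heavily glycosylated protein of lysosomes and endosomes that is used to mark macrophages, had 22.7 FPKM after 4OHT and 34.6 FPKM in vehicle cells, 1.53-fold lower, with a log2 ratio of -0.59, the lowest of the members, and q = 0.0227 in the authors' deposited table (mm9 chromosome 11, 69477873 to 69479564). The main structural and transport proteins had nearly equal levels in the conditions. Lamp2, which lines the lysosomal membrane, had 86.3 FPKM after 4OHT and 86.5 FPKM in vehicle cells, and Laptm5, a membrane protein of blood cells, had 279.6 FPKM after 4OHT and 278 FPKM in vehicle cells. Npc2 and Npc1, which hand cholesterol out of the lysosome, had 113 FPKM (Npc2) and 14.1 FPKM (Npc1) after 4OHT, against 114 FPKM (Npc2) and 14.3 FPKM (Npc1) in vehicle cells. Mcoln1, a calcium-permeable channel, had 11.3 FPKM after 4OHT and 11.7 FPKM in vehicle cells, and Scarb2, which delivers β-glucocerebrosidase to lysosomes, 20.0 FPKM after 4OHT and 21.7 FPKM in vehicle cells. Psap, the precursor of the saposins that lipid enzymes need, had the next lowest ratio after Cd68. Its level was 257 FPKM after 4OHT and 329 FPKM in vehicle cells, a log2 ratio of -0.35, with q = 0.269 in the authors' deposited table. Gm2a, the activator that presents GM2 ganglioside to β-hexosaminidase, had 49.2 FPKM after 4OHT and 46.3 FPKM in vehicle cells. Grn, the gene of progranulin, had 132 FPKM after 4OHT and 133 FPKM in vehicle cells.

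Some markers of monocytes and macrophages fell along with Cd68. Of 16 such markers outside the members 13 were tested, of which 6 fell, 1 rose and 6 were not called, beside backgrounds of 3.11% and 2.80%. Their summed level was 717 FPKM after 4OHT and 1094 FPKM in vehicle cells, a ratio of 0.656, and none was listed at 0. Ly6c2, the most abundant of them, weighs most on that sum, at 323 FPKM after 4OHT and 551 FPKM in vehicle cells. The fallen markers were F13a1 (7.17 FPKM after 4OHT and 53.6 FPKM in vehicle cells), Lgals3 (18.2 FPKM after 4OHT and 48.8 FPKM in vehicle cells), Itgam, Cd14, Ly6c2 and Irf8, and the riser was Mrc1, at 0.499 FPKM after 4OHT and 0.185 FPKM in vehicle cells. Csf1r, Lyz2, Ccr2, Fcgr1, Mpeg1 and Emr1, the gene of F4/80, did not pass the test. Of these, Emr1 had 129 FPKM after 4OHT and 147 FPKM in vehicle cells. Lyz2 had 104 FPKM after 4OHT and 99.0 FPKM in vehicle cells, and Ccr2 87.8 FPKM after 4OHT and 114 FPKM in vehicle cells. Of 9 late neutrophil markers 6 were tested, and 4 fell: Lcn2, S100a8, S100a9 and Cxcr2. The list summed to 31.0 FPKM after 4OHT and 83.8 FPKM in vehicle cells. Lcn2 alone had 21.0 FPKM after 4OHT and 57.2 FPKM in vehicle cells. Ltf, Camp and Mmp9 stayed under 1 FPKM and were not tested, and Ngp had 0.676 FPKM after 4OHT and 0.673 FPKM in vehicle cells. In the other direction, 4 of 7 progenitor markers rose: Cd34, Flt3, Kit and, at a low level, Procr. Myb, Ptprc and Meis1 were not called, and Meis1 is also carried by the retrovirus in these cells. Of 7 tested mast cell and basophil markers, Cpa3 and Gata2 rose and 5 were not called. Of 3 tested dendritic cell markers only H2-Aa rose, at 1.60 FPKM after 4OHT and 0.535 FPKM in vehicle cells. Siglech, Xcr1 and Zbtb46, also on that list, stayed under 0.1 FPKM and were not tested. None of 12 housekeeping genes was called. In bulk RNA, fewer cells of a type and less RNA per cell cannot be told apart, and the part of these cells in the falls of lysosome genes was not tested.

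In the proton pump, Atp6v0d1 fell and the other 10 members did not pass the test. Atp6v0d1, the d subunit that couples the V0 and V1 sectors, had 149 FPKM after 4OHT and 216 FPKM in vehicle cells, 1.45-fold lower, with a log2 ratio of -0.54 and a q of 0.0111 in the authors' deposited table (mm9 chromosome 8, 108048370 to 108089940). In vehicle cells it was the most abundant of the 11 pump members on the FPKM scale. Its paralog Atp6v0d2, typical of osteoclasts and macrophages, had 0.209 FPKM after 4OHT and 0.0903 FPKM in vehicle cells. The proteolipid subunits that form the rotating ring of V0 did not pass the test. Atp6v0b had 105 FPKM after 4OHT and 130.1 FPKM in vehicle cells (q = 0.435 in the authors' deposited table), and Atp6v0c had 154 FPKM after 4OHT and 163 FPKM in vehicle cells. The level of Atp6v0c is uncertain, since its locus also holds the row of its pseudogene copy, Atp6v0c-ps2, listed at 64.4 FPKM after 4OHT and 104 FPKM in vehicle cells. Summed, the 4 V0 members reached 431 FPKM after 4OHT and 526 FPKM in vehicle cells, a ratio of 0.818.

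The a subunit of V0, which steers the pump to its membrane, has several isoforms, whose levels differed in direction, none past the threshold. Atp6v0a1 had the highest ratio of all members, at 23.5 FPKM after 4OHT and 17.1 FPKM in vehicle cells, a log2 ratio of 0.44, and missed the threshold, since the authors' deposited table gave p = 0.00510 and q = 0.0764. Tcirg1, the a3 isoform of lysosomes in osteoclasts and macrophages, had 38.2 FPKM after 4OHT and 47 FPKM in vehicle cells (q = 0.473 in that table). Atp6v0a2 had 17.3 FPKM after 4OHT and 16.3 FPKM in vehicle cells, and Atp6v0a4, an isoform of kidney, was listed at 0 in each. The isoforms therefore summed to 79.1 FPKM after 4OHT and 80.3 FPKM in vehicle cells. Within that sum Atp6v0a1 made up 29.7% after 4OHT and 21.3% in vehicle cells, and Tcirg1 48.4% after 4OHT and 58.5% in vehicle cells. No test was run on these shares.

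The V1 members, which burn ATP and turn the rotor, were called in neither direction. The catalytic subunit gene Atp6v1a had 45.5 FPKM after 4OHT and 50.5 FPKM in vehicle cells, and Atp6v1b2, the B subunit it alternates with, had 49.8 FPKM after 4OHT and 58.8 FPKM in vehicle cells. The stalk genes Atp6v1e1 (91.2 FPKM after 4OHT and 106 FPKM in vehicle cells) and Atp6v1c1 (28.1 FPKM after 4OHT and 31.4 FPKM in vehicle cells) were lower after 4OHT by under 1.2-fold, and Atp6v1d, of the central rotor, had 40.8 FPKM after 4OHT and 40.1 FPKM in vehicle cells. Atp6v1h, which regulates the sector's activity, had 38.4 FPKM after 4OHT and 37.8 FPKM in vehicle cells. Atp6ap1, an accessory protein of pump assembly, had 95 FPKM after 4OHT and 105 FPKM in vehicle cells. The 6 V1 members summed to 294 FPKM after 4OHT and 324 FPKM in vehicle cells, a ratio of 0.906. Over all 11 pump members the median log2 ratio was -0.15, with 8 below 0 and 3 above, the lowest median among the groups of roles, and the summed FPKM ratio was 0.858. Without Atp6v0d1, the called member, the summed ratio was 0.908.

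The regulators Tfeb and Tfe3 did not pass the test, while a paralog outside the members fell. Tfeb had 3.61 FPKM after 4OHT and 3.82 FPKM in vehicle cells, and Tfe3 8.31 FPKM after 4OHT and 7.57 FPKM in vehicle cells. Mitf, the founding MiT factor, had 2.73 FPKM after 4OHT and 2.97 FPKM in vehicle cells. Tfec, the MiT member found mainly in myeloid cells, had 29.0 FPKM after 4OHT and 63.9 FPKM in vehicle cells, 2.20-fold lower, and the authors' deposited table gave q = 0.00165. In either condition Tfec was the most abundant of the MiT transcripts. It was the single called gene among 15 tested genes of MiT factors and lysosomal nutrient sensing, beside 3.11% of all tested rows called lower. A single call in a list of that size is too few to compare with that share, and no test was run. The list also holds the Rag GTPases Rraga (48.7 FPKM after 4OHT and 49.3 FPKM in vehicle cells) and Rragc (43.2 FPKM after 4OHT and 44.0 FPKM in vehicle cells). Neither these nor the 5 Ragulator genes were called.

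**Figure D3:**
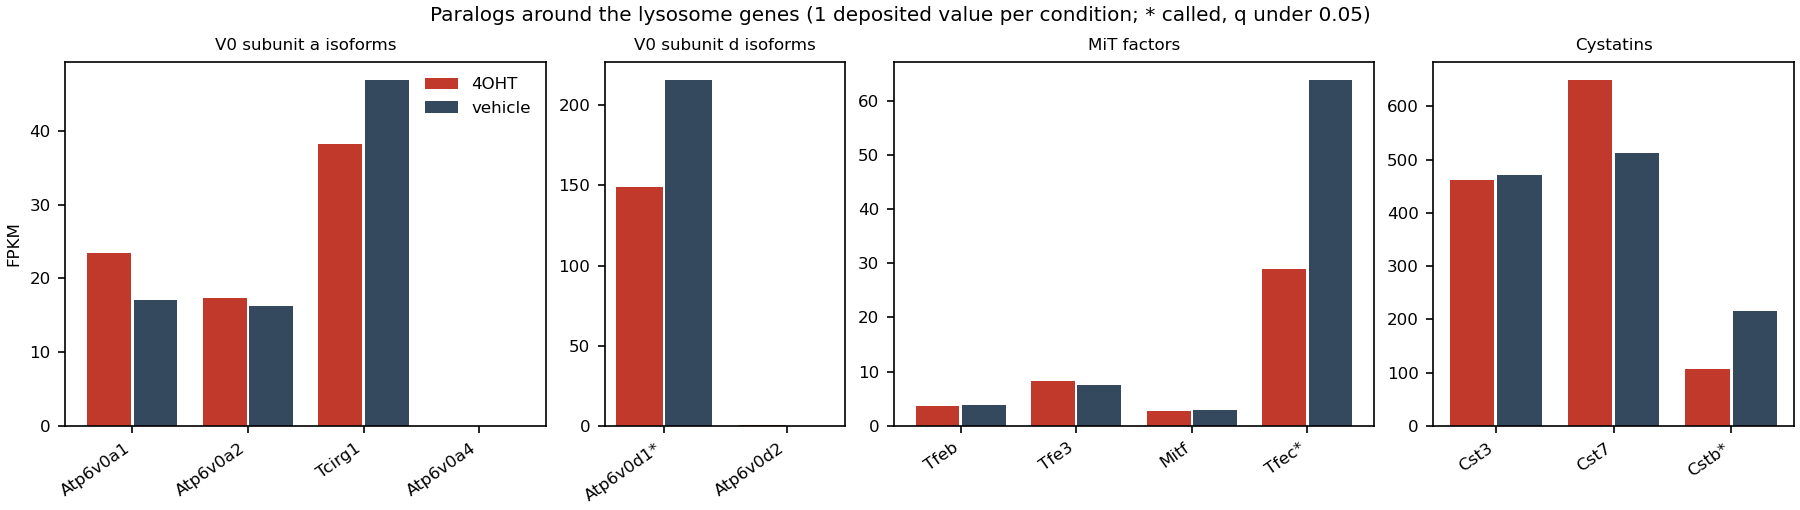
FPKM (1 deposited value per condition, bars from 0) of V0 subunit a and d isoforms, MiT factors and cystatins, with 4OHT in red to the left of vehicle in dark blue. Starred genes were called: Atp6v0d1, Tfec and Cstb are lower after 4OHT, and Atp6v0a4 is listed at 0.

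The E-box that MiT factors bind was found in part of the lysosome promoters. RefSeq promoters were matched for 40 of 47 members (48 promoters), with none for Asah1, Atp6v1b2, Atp6v1c1, Atp6v1h, Ctsb, Ctsh and Npc1. TCACGTG, searched on both strands, occurred in 12 of 40 members (30.0%), beside 4.29% of 27025 genes with promoters of the same length. These were Arsa, Atp6v0b, Atp6v0d1, Atp6v1a, Ctsa, Ctsd, Gaa, Gla, Glb1, Lgmn, Mcoln1 and Sgsh. Its core CACGTG, which every such match contains, occurred in 13 members (32.5%, beside 8.09% of genes), the additional one being Ctsl. The longer palindromic CLEAR consensus, which contains both, occurred in 0 of 40 members and in 0.370% of genes. The C/EBP-type motif TTGCNNAA, on both strands, occurred in 8 of 40 members (20.0%), beside 12.2% of genes: Atp6ap1, Cd68, Ctsl, Gaa, Ids, Npc2, Ppt1 and Tfeb. A match says only that these letters lie in the window.

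Falls occurred among members with the E-box and among members without it. Of the 12 members with TCACGTG, 2 fell (Gla and Atp6v0d1), and of the 28 matched members without it 2 fell (Neu1 and Cd68). Over all tested rows 3.11% were called lower, and these small counts were not tested against each other. The 11 measured members with the motif had a median log2 ratio of -0.11 and spanned -0.57 (Gla) to 0.31 (Sgsh). The 28 without it had a median of -0.06 and spanned -0.59 (Cd68) to 0.44 (Atp6v0a1). No test was run on this difference, since the motif was searched with the ratios known.

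**Figure D4:**
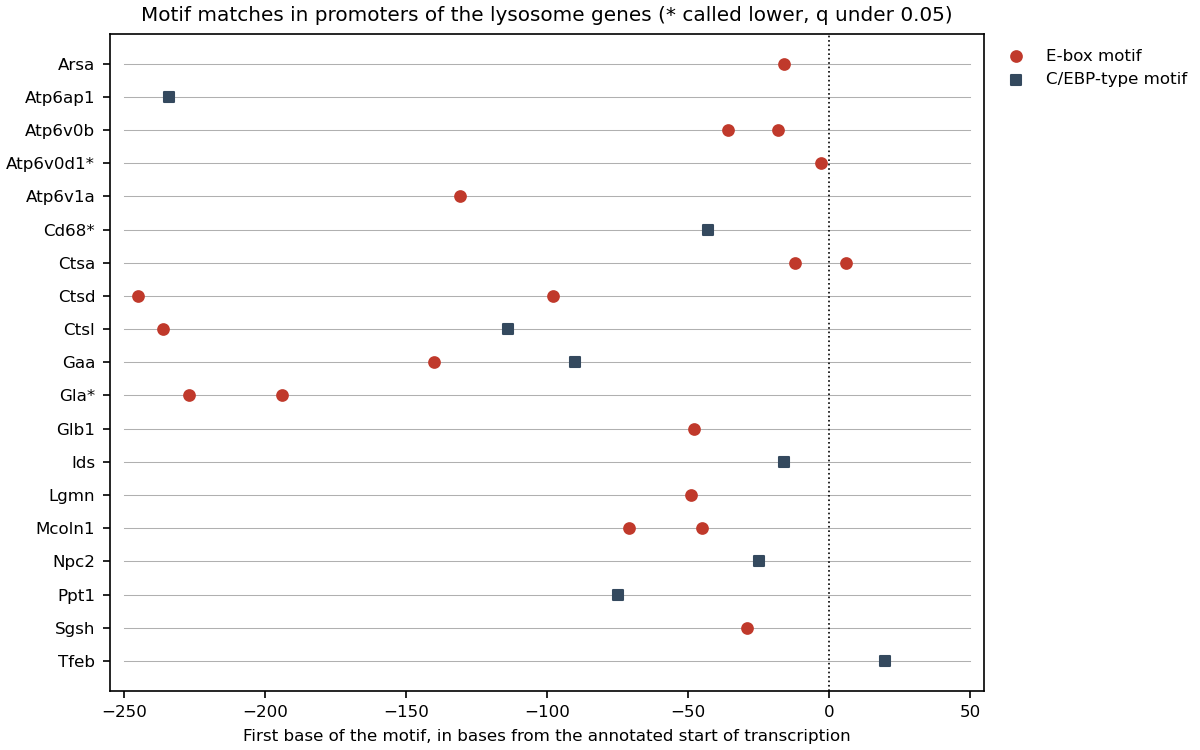
First base of each match to the E-box core (red circles) and to the C/EBP-type motif (dark blue squares), in bases from the annotated start of transcription, in the members with a match. E-boxes lie from -245 (Ctsd) to 6 (Ctsa), and the starred genes, which fell after 4OHT, carry 2 (Gla), 1 (Atp6v0d1) and 0 (Cd68) of them.

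Lysosome genes outside the 47 were called in both directions. Of 65 further hydrolases, membrane proteins and pump subunits 55 were tested, and 3 fell and 2 rose, beside backgrounds of 3.11% and 2.80%. The members, given above, had 4 falls and no rise, and the lists were not tested against each other. The median log2 ratio of these further genes was -0.04, beside -0.06 for the members. Lamp1, the partner of Lamp2 in the lysosomal membrane, had 178 FPKM after 4OHT and 274 FPKM in vehicle cells, 1.54-fold lower, with q = 0.00310 in the authors' deposited table, while Lamp2 was not called. Ctse, an aspartic protease of endosomes related to Ctsd, fell to 21.2 FPKM after 4OHT, against 33.1 FPKM in vehicle cells, and Scpep1, a serine carboxypeptidase related to Ctsa, to 7.20 FPKM after 4OHT, against 10.9 FPKM in vehicle cells. The authors' deposited table gave q = 0.00165 to Ctse and q = 0.0426 to Scpep1. The rises were at low levels. Ctsw, a cathepsin of cytotoxic lymphocytes, had 1.44 FPKM after 4OHT and 0.247 FPKM in vehicle cells, and Abcb9, a peptide transporter of lysosomes, 1.44 FPKM after 4OHT and 0.782 FPKM in vehicle cells. The authors' deposited table has q = 0.00806 for Ctsw and q = 0.0485 for Abcb9. Abundant genes that did not pass the test included the tetraspanin Cd63 (661 FPKM after 4OHT and 518 FPKM in vehicle cells), Atp6v1f (241 FPKM after 4OHT and 228 FPKM in vehicle cells) and Ctsc, the protease that activates granule serine proteases (122 FPKM after 4OHT and 133 FPKM in vehicle cells).

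Inhibitors, sorting genes and autophagy genes had 1 called member each, lower after 4OHT, out of 5, 14 and 22 tested genes. Over all tested rows 3.11% were called lower. A single call in lists of these sizes is too few to compare with that share, and no test was run. Of 5 tested cathepsin inhibitors, Cstb, stefin B, a cytosolic inhibitor of cathepsins B, H and L, fell to 106 FPKM after 4OHT, against 215 FPKM in vehicle cells, 2.03-fold lower, and the authors' deposited table gave q = 0.00165. The secreted cystatin Cst3 had 462 FPKM after 4OHT and 470.3 FPKM in vehicle cells, and Cst7, cystatin F, an inhibitor delivered to lysosomes, had 650.3 FPKM after 4OHT and 513 FPKM in vehicle cells (q = 0.303 in that table). Of 14 sorting genes, Igf2r, the large receptor for mannose 6-phosphate tags, fell to 1.13 FPKM after 4OHT, against 2.04 FPKM in vehicle cells, and the authors' deposited table gave q = 0.00165. M6pr, the smaller receptor, was far more abundant, at 163 FPKM after 4OHT and 182 FPKM in vehicle cells, and was not called. Gnptab, whose enzyme makes the tag, had 75.4 FPKM after 4OHT and 55 FPKM in vehicle cells, with q = 0.0667 in the authors' deposited table. Of 22 autophagy genes, Atg7, an activating enzyme of autophagosome formation, fell to 18.2 FPKM after 4OHT, against 27.0 FPKM in vehicle cells, for which the authors' deposited table gave q = 0.00698. Sqstm1, the cargo receptor p62, had 136 FPKM after 4OHT and 127 FPKM in vehicle cells.

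**Figure D5:**
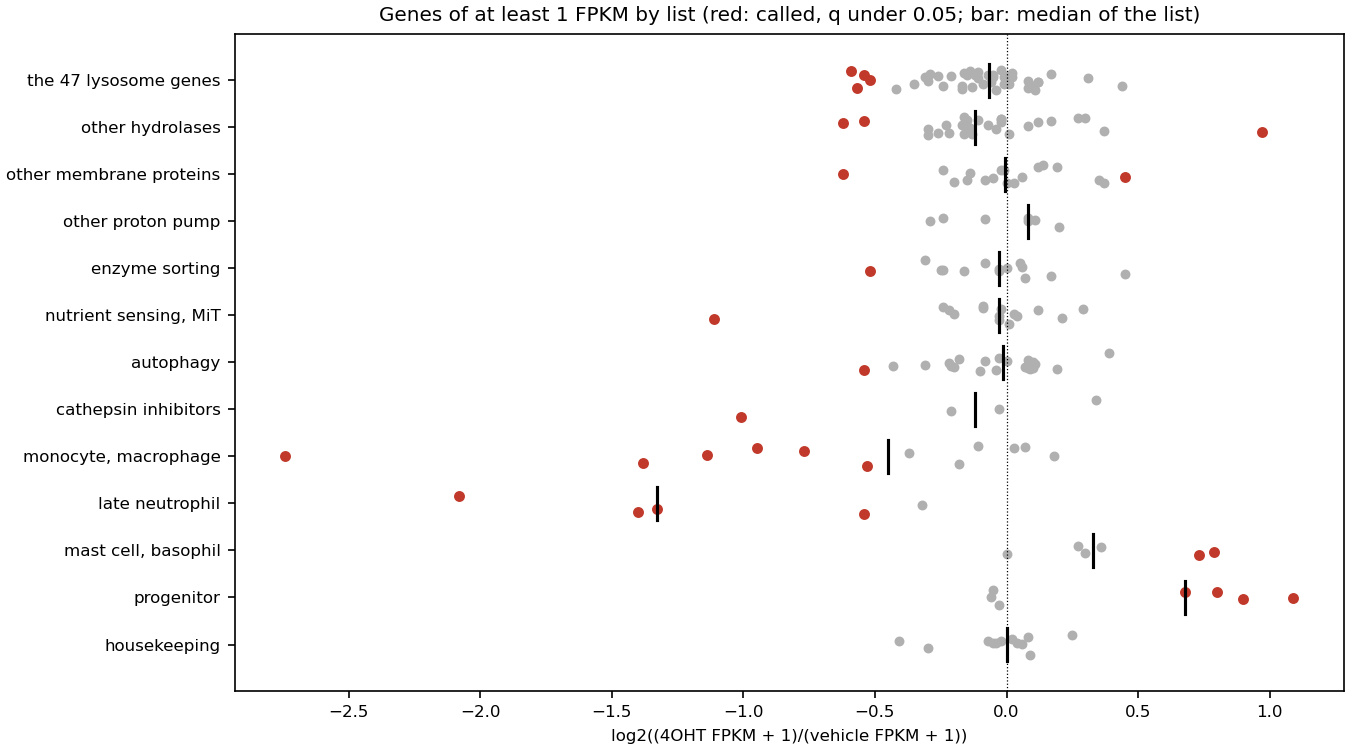
Log2((4OHT FPKM + 1)/(vehicle FPKM + 1)) of every gene of at least 1 FPKM in each list, with called genes in red, the rest in grey and the list median as a black bar. The lysosome lists centre near 0 (median -0.06 for the 47 genes), against medians of -0.45 for monocyte and macrophage markers and 0.68 for progenitor markers. Of the 7 progenitor markers, 3 were not called, among them Meis1, which the retrovirus also carries.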

How the data were processed

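Per the labels' protocols, total RNA was column-purified with DNase treatment and made into Illumina TruSeq libraries; whether they kept strand is not stated there. Cuffdiff 2.0.2, Bowtie2 2.0.0.7, CASAVA 1.8.2 and the build mm9 are listed, without their roles, per the submitters' processing notes. The authors deposited 1 table with, per the file headers, FPKM per condition, a test statistic (a score), a p-value, a q-value and a linear fold ratio. Adjusting the deposited p-values by Benjamini-Hochberg over the 11953 tested rows gave the deposited q to within 5.28e-07. Every deposited p-value there is a whole multiple of 5.00e-05, as resampling would give, so which test made them is uncertain. The deposited mark for a 1.5-fold change was checked: among called rows the smallest marked fold is 1.501 and the largest unmarked one 1.499. The deposited log2 column holds spreadsheet errors and was not used. The members and lists were chosen with earlier results of these data known, as were the motifs.

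No test was made from the single values per condition. Log2 ratios and medians used rows of at least 1 FPKM in the higher condition and a pseudocount of 1 FPKM (Python 3.11.15, pandas 2.3.3), after the calling code was tested on simulated data. All 242 list entries matched by symbol. Named genes are every called member, the 5 highest, the 5 largest ratios each way, Tfeb and Tfe3, and called or abundant genes of the other lists; the remaining members are given by role. The loci of 9 members overlap those of other rows, and without strand, reads of overlapping genes cannot be told apart. Promoters came from RefSeq on GRCm38.p6, another build than the deposited mm9 loci.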

Additional observations from a re-analysis of the deposited data

How the results depend on the processing

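Of the 15 results recomputed under other settings, 70 of 79 values kept their direction and stayed within 1.5 times the count or within 0.1 on the log2 scale. Counts of members moved with the threshold. At q under 0.01, 1 member was lower (2.12% of tested rows), and at q under 0.1, 1 was higher (Atp6v0a1; 3.44% of tested rows). With q under 0.05 and at least 1.5-fold, a rule added after seeing the data, 2 members were lower. By a size rule of 1.5-fold on log2(FPKM + 1) with no test, 1 member was lower, Cd68 (2.74% of tested rows). For the other lysosome genes, 1 was higher at q under 0.01 (1.72% of tested rows) and 1 by the size rule (2.12% of tested rows). Over all rows 205 were higher at q under 0.01. The median of membrane proteins and cofactors, -0.01, was 0.01 after scaling to equal sums, which multiplies the 4OHT FPKM by 1.02. The summed protease ratio of 1.00 was 0.817 without Ctsd. No paired analysis was possible because each condition has 1 deposited value that joins its replicates, so no replicate could be left out either. Without read counts, the counting error of a level is unknown.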
